A study of Drosophila melanogaster with 9 samples.

Results

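The Drosophila epidermal growth factor (EGF) receptor and MAP kinase pathway was followed through 10 genes in the wing pouch, the region of the wing imaginal disc that becomes the blade of the adult wing. The 10 were taken by symbol: the ligand genes spi and vn, the ligand-processing protease gene rho, the receptor gene Egfr, the signal relay genes Ras85D and rl, the inhibitor genes aos and sty, and the transcription factor genes pnt and cic. All 10 were found among 15682 genes of the deposited table. Positions given beside each gene are those of the BDGP6 assembly, matched by identifier. The values are RPKM, reads scaled by gene length and by library depth, in 9 libraries of 3 genotypes.

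Larvae of all 3 genotypes had mothers of the stock w1118, Bx-GAL4; UAS-dicer2 (Bloomington 25706). Bx-GAL4, also called MS1096, is a driver active in the wing pouch, and UAS-dicer2 supplies extra Dicer-2, the enzyme that cuts hairpin RNA. Their fathers were CR32027-IR1 (VDRC 26860) or CR32027-IR2 (VDRC 103512), each with a UAS hairpin against the noncoding RNA CR32027, or OreR wild type, which has no hairpin. From wandering male larvae of the last stage, grown at 25 °C, 30 discs were dissected per genotype and freed of their nota, and RNA was extracted in triplicate. Each genotype has 3 libraries. No label says whether these stem from different crosses, so the p-values reflect only how far these libraries spread, and that spread may be technical.

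The receptor is a transmembrane tyrosine kinase. Its main ligand Spitz is made as an inactive membrane protein that Rhomboid protease releases. The bound receptor acts through Ras, Raf and MEK on the MAP kinase Rolled, which turns on the activator Pointed and relieves repression by Capicua. In the wing disc this pathway is known for specifying veins, for growth and for setting up the notum. Argos and Sprouty, which the pathway itself induces, hold it back.

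CR32027, the targeted RNA, served as the check of the labels. It had 4.46, 3.34 and 2.93 RPKM in the CR32027-IR1-labelled libraries, 0.408, 1.12 and 1.19 in CR32027-IR2, against 2.38, 3.3 and 2.53 in OreR. CR32027-IR2 was thus below OreR in every library, while the CR32027-IR1-labelled libraries were not below it. The log2 change was -0.99 ± 0.19 in CR32027-IR2 (SE; limma, adjusted p = 0.0171), a call lost without OreR replicate 2 (0.0778), and 0.29 ± 0.19 in the CR32027-IR1-labelled libraries (adjusted p = 0.348). In CR32027-IR2 it was -1.78 with limma voom on the recovered reads and -1.60 with a pseudocount of 0.1. The name hairpin genotypes, used of both, follows the labels. All directions given for the libraries with the CR32027-IR1 label refer to the label alone. Each library rests on 25070343 to 36512316 reads, as recovered from the steps between low values.

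Wing pouch and hinge markers were present. Of 5 notum markers 3 averaged under 1 RPKM, among them pnr and tup near 0, while eyg and toe were above 1 RPKM. Summed RPKM of 4 pouch markers (nub, vg, pdm2 and Dll) was 35.1 to 37.5 in the CR32027-IR1-labelled libraries, 39.3 to 40.9 in CR32027-IR2 and 40.8 to 42.6 in OreR. Of the 4, nub (log2 change -0.27; limma, adjusted p = 0.0213) and pdm2 (-0.32; 0.0248) were called lower in the CR32027-IR1-labelled libraries than in OreR, and 0 in CR32027-IR2, where 2 had an unadjusted p under 0.05 and limma voom called 0. The sum of 4 hinge markers was 66.9 to 76.5, 67.9 to 70.2 and 53.9 to 71.0 in the same order of genotypes. All 4 had a positive log2 change against OreR in both, and 0 were called by limma or limma voom, with 2 at an unadjusted p under 0.05 in the CR32027-IR1-labelled libraries and 0 in CR32027-IR2. Among all genes, limma called 6.09% higher and 7.61% lower than in OreR in the CR32027-IR1-labelled libraries. In CR32027-IR2 it called 2.93% higher and 2.22% lower. These shares are at the adjusted threshold. Counts at an unadjusted p under 0.05, here and below, have no share of all genes beside them and are a description only. The sum of 5 notum markers was 3.38 to 4.38, 3.52 to 3.84 and 3.87 to 4.31, where pnr and tup averaged under 0.1 RPKM, and eyg and toe 1.37 and 1.77. Myoblast markers summed to at most 0.609 RPKM, neuron markers to at most 3.84, fat body markers to at most 1.73 and hemocyte markers to at most 8.75. The tracheal gene trh was at 3.21 to 3.91, 3.57 to 3.77 and 4.48 to 5.12 RPKM, and was called lower than in OreR in the CR32027-IR1-labelled libraries (-0.39; limma, adjusted p = 0.0117) and in CR32027-IR2 (-0.33; 0.0427). No list had a member at 0 in all libraries of a genotype. In whole tissue, fewer cells of a type and less RNA per cell cannot be told apart.

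The members differ widely in level. RPKM in this table is scaled to a length close to the whole gene with its introns, so genes are set in order here by reads per kilobase of BDGP6 exon, scaled to library depth as in RPKM. On that scale Ras85D averaged 143 and spi 136 over the 9 libraries, followed by Egfr at 64.0, rl at 41.8, cic at 32.3, vn at 16.2, sty at 15.4, aos at 9.39, rho at 4.42 and pnt at 4.14. The ranges over libraries overlapped for Ras85D and spi, for rl and cic, for vn and sty, and for rho and pnt, so those neighbours in the order are not separated beyond their spread. Exons of all annotated transcripts count in this length, so a gene with many alternative exons comes out lower. The sources used here do not say whether intronic reads were counted. If they were, genes with a small exonic share of their span come out higher. That share is 10.9% for pnt and 78.1% for Ras85D, so the order is approximate.

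**Figure D1:**
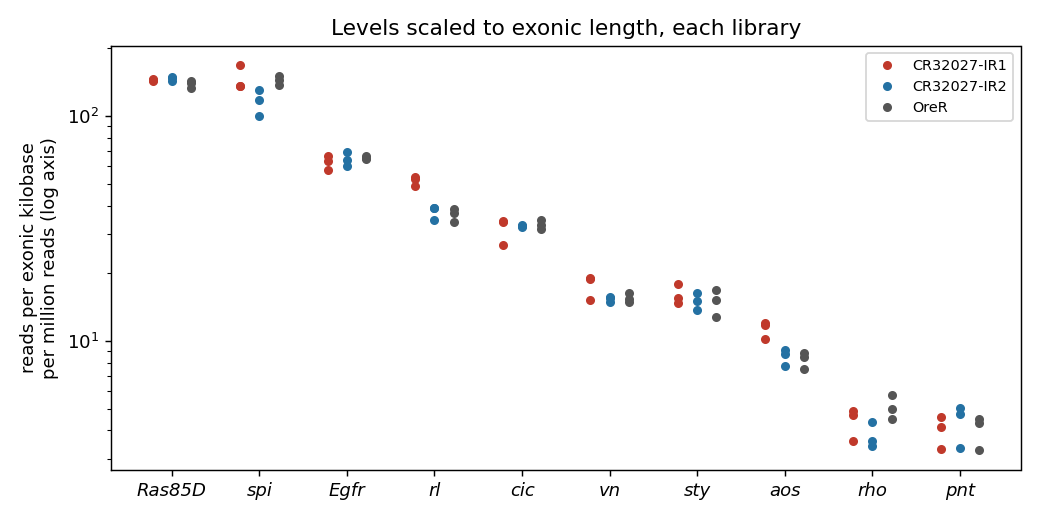
Depth-scaled reads per exonic kilobase on a log axis for the 10 genes, with 1 point per library and genotypes side by side. Ras85D and spi lie near 140, Egfr near 64, and rho and pnt lie lowest, between 3.26 and 5.75.

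Of the 10 genes 2 were called, both in the CR32027-IR1-labelled libraries, the MAP kinase gene rl and the inhibitor gene aos. Both were higher than in OreR and than in CR32027-IR2. The aos calls in these comparisons sat near the threshold and were lost in 8 and 7 of 9 fits without 1 library. Of the other 8, pnt was below the filter of a mean of 1 RPKM over all libraries and was not tested in the fit given next. The rest did not pass in any of the 3 comparisons. An alternative fit with no filter included pnt and did not call it. Genes were called at an adjusted p under 0.05 over all 7437 genes past the filter, in 1 limma fit to log2(RPKM + 1) of all libraries. Of the 9 members past the filter, 2 were called higher and 0 lower in the CR32027-IR1-labelled libraries against OreR, where 13.7% of all genes were called, 6.09% as higher and 7.61% as lower. In CR32027-IR2 against OreR 0 of 9 were called, with 5.15% of all genes called, 2.93% as higher and 2.22% as lower, and 2 of 9 had an unadjusted p under 0.05. Between the hairpin genotypes 2 of 9 were called, both higher in the CR32027-IR1-labelled libraries, with 21.9% of all genes called, 12.3% as higher and 9.57% as lower. With limma voom on the recovered reads, where all 10 were tested, 2, 0 and 3 members were called in these comparisons, beside 13.3%, 5.44% and 21% of 8567 genes. The median log2 change of the 9 was 0.06, -0.01 and 0.14 in these comparisons, beside 0.01, -0.02 and 0.03 over all genes. Both comparisons with OreR use the same OreR libraries.

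**Figure D2:**
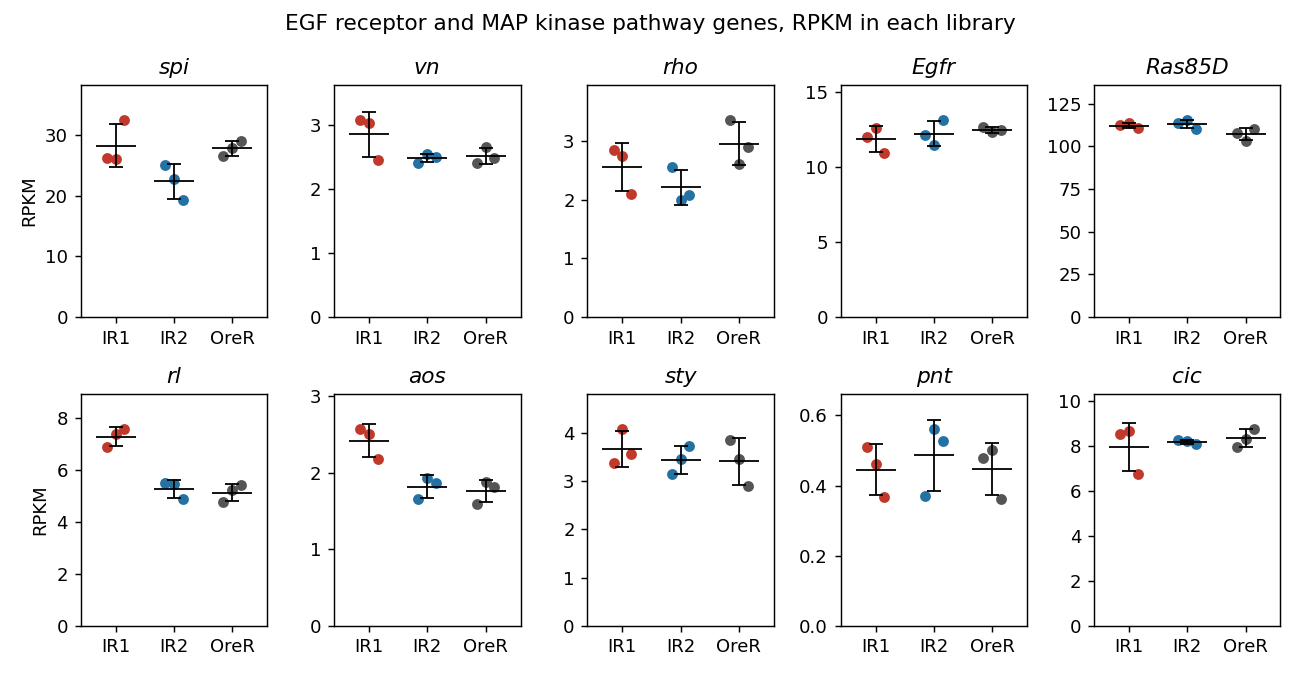
RPKM of the 10 genes in each library, with the mean and SD of 3 libraries per genotype; IR1 and IR2 stand for CR32027-IR1 and CR32027-IR2, and each axis starts at 0. For rl and aos all CR32027-IR1-labelled libraries lie above all others, and spi and rho lie lower in all CR32027-IR2 libraries than in OreR.

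The ligand gene spi (FBgn0005672; 2L, 19567900 to 19577315, minus strand) encodes Spitz, the main activating ligand. It had 26.3, 26.1 and 32.4 RPKM in the CR32027-IR1-labelled libraries, 25.0, 22.7 and 19.3 in CR32027-IR2, against 26.6, 27.8 and 29.0 in OreR. Every CR32027-IR2 library was below every other library, while the CR32027-IR1-labelled libraries overlapped OreR and held its highest value, in replicate 3. The difference between CR32027-IR2 and OreR was -19.6% of the OreR mean, a log2 change of -0.31 with a 95% interval of -0.54 to -0.07, and it did not pass (limma, adjusted p = 0.145; exact permutation p = 0.1). The log2 difference between the hairpin genotypes, 0.33, missed the threshold (adjusted p = 0.0537). It passed without CR32027-IR1 replicate 2 (0.037) or CR32027-IR2 replicate 1 (0.0386), with genes of at least 5 RPKM (0.0458) and with limma voom on the recovered reads (0.0447). Against OreR the CR32027-IR1-labelled libraries differed by 0.02 on the log2 scale (adjusted p = 0.942). On the same strand 3 microRNA genes overlap spi, and 1 of them averaged 10 or more reads.

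The second ligand gene, vn (FBgn0003984; 3L, 5813338 to 5845664, minus strand), encodes the neuregulin-like Vein, which needs no Rhomboid cleavage. Its values were 3.08, 3.05 and 2.45 RPKM in the CR32027-IR1-labelled libraries, 2.42, 2.55 and 2.51 in CR32027-IR2, against 2.41, 2.65 and 2.49 in OreR. All genotypes overlapped, with replicates 1 and 2 labelled CR32027-IR1 above the rest. Against OreR the CR32027-IR1-labelled libraries differed by 0.13 on the log2 scale (95% interval of -0.05 to 0.31; limma, adjusted p = 0.325) and CR32027-IR2 by -0.01 (-0.19 to 0.17; 0.969).

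The protease gene rho (FBgn0004635; 3L, 1463811 to 1468944, plus strand), whose transcription in vein primordia is known to set where Spitz is released, was among the lowest members. It had 2.85, 2.74 and 2.10 RPKM in the CR32027-IR1-labelled libraries, 2.56, 1.99 and 2.09 in CR32027-IR2, against 3.36, 2.62 and 2.91 in OreR. The CR32027-IR2 libraries all lay under the OreR libraries, and those labelled CR32027-IR1 overlapped both. In CR32027-IR2 the mean differed by -25.3% from OreR, a log2 change of -0.30 (95% interval -0.56 to -0.05) that did not pass (limma, adjusted p = 0.189). With 269 to 513 reads per library, counting alone gives a spread of 5.01% at the mean depth, against SDs of 12.6% to 16.0% of the mean within genotypes. In CR32027-IR2 spi and rho were the members with an unadjusted p under 0.05. The share of all genes under that cutoff is not given here, so this does not set them apart.

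**Figure D3:**
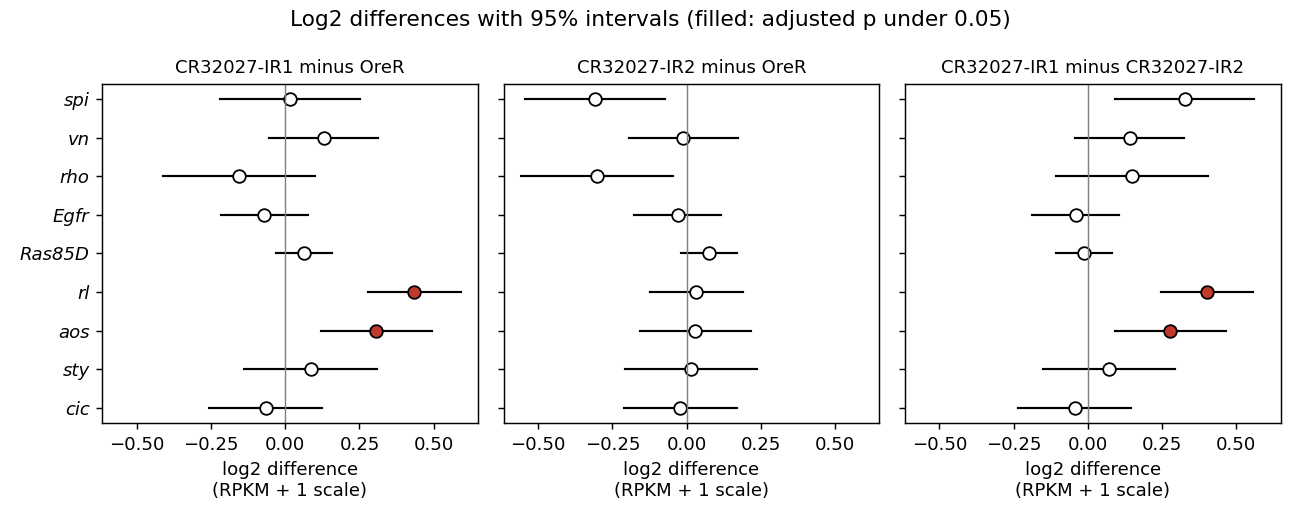
Log2 differences on the log2(RPKM + 1) scale with 95% intervals for the 9 members past the filter, in 3 comparisons with the first-named genotype minus the second; filled points passed an adjusted p of 0.05. The points for rl (0.44 and 0.40) and aos (0.31 and 0.28) are the filled ones in the panels that hold the CR32027-IR1-labelled libraries.

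Transcript levels of the receptor varied little. Egfr (FBgn0003731; 2R, 21522420 to 21559977, plus strand) was at 12.0, 12.6 and 11.0 RPKM in the CR32027-IR1-labelled libraries, 12.1, 11.5 and 13.1 in CR32027-IR2, against 12.7, 12.3 and 12.5 in OreR. All genotypes overlapped. The log2 change against OreR was -0.07 in the CR32027-IR1-labelled libraries (95% interval -0.22 to 0.08; limma, adjusted p = 0.518) and -0.03 in CR32027-IR2 (-0.18 to 0.12; 0.879). Over the 9 libraries the genes whose log2 values followed those of Egfr most closely, among 7436, were Rbcn-3A (Pearson r = 0.935), CG34408 (0.921) and CG16974 (0.921), a description with no test, since all values share the same libraries and scaling. None of the 3 was called in any comparison, where 13.7%, 5.15% and 21.9% of all genes were called. As they were picked for following Egfr, which was not called, this adds nothing to its result.

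In the signal relay, Ras85D (FBgn0003205; 3R, 9510561 to 9513067, minus strand) encodes the small GTPase Ras. It was at 112, 114 and 111 RPKM in the CR32027-IR1-labelled libraries, 114, 115 and 110 in CR32027-IR2, against 108, 103 and 110 in OreR. The CR32027-IR1-labelled libraries all lay just above OreR, by 4.56% of the mean, and the log2 change of 0.06 did not pass (95% interval -0.03 to 0.16; limma, adjusted p = 0.343). In CR32027-IR2 it was 0.08 (-0.02 to 0.17; 0.391), with overlap.

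The MAP kinase gene rl (FBgn0003256; 2R, 1071462 to 1125927, plus strand) showed the largest log2 difference of the 9 genes tested. It had 6.90, 7.40 and 7.58 RPKM in the CR32027-IR1-labelled libraries, 5.49, 5.48 and 4.87 in CR32027-IR2, against 4.76, 5.21 and 5.43 in OreR. The CR32027-IR1-labelled libraries lay above all others without overlap, and CR32027-IR2 overlapped OreR. The rise over OreR was 42.0% of the mean, or 0.44 ± 0.07 on the log2 scale (SE; limma, adjusted p = 0.00423), and over CR32027-IR2 38.1%, which is 0.40 ± 0.07 (adjusted p = 0.00426). In CR32027-IR2 against OreR the log2 change was 0.03 (95% interval -0.12 to 0.19; adjusted p = 0.868). The exact permutation p for each of the first 2 comparisons was 0.1, the smallest that 3 against 3 libraries allow. These 2 calls held in every alternative run, with log2 changes of 0.39 to 0.51 against OreR and 0.33 to 0.47 against CR32027-IR2. Between 6514 and 13259 reads stood behind each value, and no other gene of the table overlaps rl in BDGP6. The lower pouch marker sums given above fall in the same libraries as the changes of rl and aos. All 4 hinge markers had positive log2 changes against OreR in those libraries and in CR32027-IR2, with 0 called. Of 3 listed tracheal markers only trh was found. It was called lower than in OreR in the CR32027-IR1-labelled libraries and also in CR32027-IR2, where neither rl nor aos was called. Whether shifts in these markers have a part in the changes of rl and aos was not tested.

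The gene rl lies in the part of chromosome arm 2R near the centromere. Its closest match across the 9 libraries was CG40191 (r = 0.981), which starts 193 kb from the start of rl on the same arm, ahead of GMF on 2L (0.976) and Der-2 on 3R (0.974). A window of 250 kb on each side, chosen after these values were seen, holds 4 other genes past the filter. Among them, CR41257 averaged 3.10 RPKM in the CR32027-IR1-labelled libraries, 0.447 in CR32027-IR2 and 1.39 in OreR, and it passed the filter through the CR32027-IR1-labelled libraries. The values of the 4 are therefore given as a description, with no p-value and no count over the window.

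The protein-coding gene CG40191 had 99.4, 104 and 105 RPKM in the CR32027-IR1-labelled libraries, 74.2, 77.3 and 70.7 in CR32027-IR2, against 68.4, 68.9 and 71.8 in OreR. Its log2 change against OreR in the CR32027-IR1-labelled libraries was 0.55 ± 0.05, and it was picked for following rl in these same libraries. The noncoding RNA gene CR41257 lies 142 bases from rl and runs on the opposite strand. It had 3.27, 3.22 and 2.83 RPKM in the CR32027-IR1-labelled libraries, 0.785, 0.255 and 0.301 in CR32027-IR2, against 1.42, 1.16 and 1.58 in OreR, so that the 3 genotypes did not overlap. Its log2 change against OreR was 0.78 ± 0.14 in the CR32027-IR1-labelled libraries and -0.74 ± 0.14 in CR32027-IR2, on 5 to 66 reads per library. The annotated pseudogenes CR42653 and CR40190 were higher in the CR32027-IR1-labelled libraries than in OreR by 0.43 and 0.29 on the log2 scale. Reads they may share with near-identical copies make these 2 values uncertain.

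**Figure D4:**
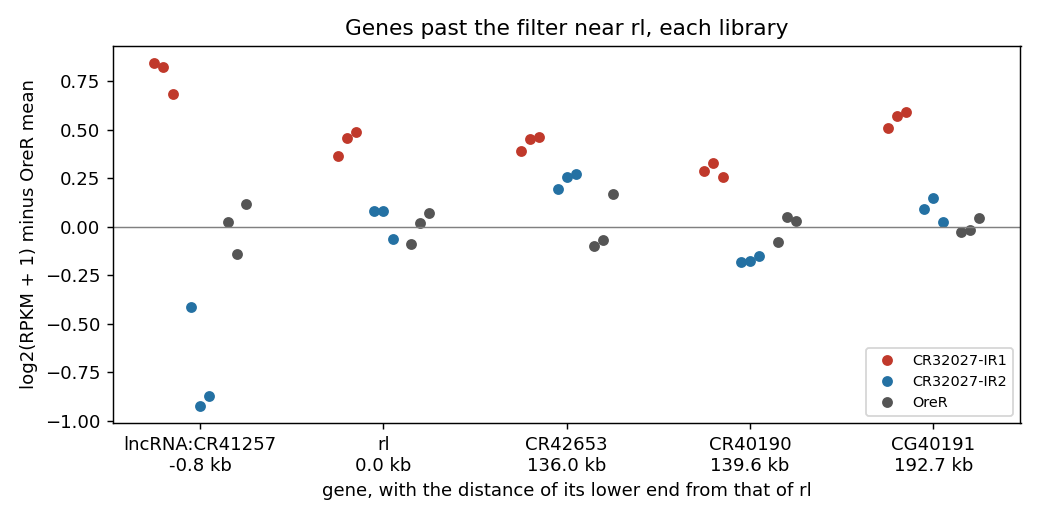
Log2(RPKM + 1) minus the OreR mean in each library for rl and the 4 other genes past the filter within 250 kb, in order along the arm; the labels give the distance of each gene's lower end from that of rl in kb. CG40191 is higher in the CR32027-IR1-labelled libraries than in OreR, and CR41257 is lower in CR32027-IR2 than in OreR. The window was chosen after these values were seen, so the points are a description only.

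Of the inhibitors, aos (FBgn0004569; 3L, 16470386 to 16483650, minus strand) encodes Argos, a secreted protein that binds Spitz and is itself a known output of the pathway. It had 2.57, 2.51 and 2.17 RPKM in the CR32027-IR1-labelled libraries, 1.65, 1.93 and 1.86 in CR32027-IR2, against 1.59, 1.88 and 1.81 in OreR. All CR32027-IR1-labelled libraries lay above the rest, and CR32027-IR2 overlapped OreR. The rise over OreR was 37.3% of the mean (log2 change 0.31 ± 0.08; limma, adjusted p = 0.0404) and over CR32027-IR2 33.0% (0.28 ± 0.08; adjusted p = 0.042). Both calls sat near the threshold. That against OreR was lost without any 1 library except CR32027-IR1 replicate 3 (0.0509 to 0.13), and that against CR32027-IR2 without any but OreR replicate 1 and CR32027-IR1 replicate 3 (0.0582 to 0.136). They also ended with no filter (0.0502 and 0.0512), array weights (0.204 and 0.184) and a fit of only the 2 genotypes compared (0.0828 and 0.0695), and that against CR32027-IR2 with median centring (0.057) or quantile normalization (0.0712). With limma voom on the recovered reads, 537 to 1037 per library, the 2 calls had adjusted p of 0.0131 and 0.0118. On the opposite strand aos lies inside CG33158, which averaged 0.743 RPKM in the CR32027-IR1-labelled libraries, 0.731 in CR32027-IR2 and 0.721 in OreR. The sources used here do not say whether counting kept the strands apart, so reads of these genes may not be separated.

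Sprouty, encoded by sty (FBgn0014388; 3L, 3401153 to 3424935, minus strand), acts inside the cell on the same relay and on FGF receptor signalling. It had 3.37, 4.08 and 3.56 RPKM in the CR32027-IR1-labelled libraries, 3.15, 3.46 and 3.73 in CR32027-IR2, against 3.87, 3.46 and 2.91 in OreR, with all genotypes overlapping. The log2 change against OreR was 0.09 (95% interval -0.14 to 0.31; limma, adjusted p = 0.614) in the CR32027-IR1-labelled libraries and 0.01 (-0.21 to 0.24; 0.966) in CR32027-IR2. The intervals of aos and sty overlap, and a difference between these genes was not tested.

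The nuclear factors gave no call. The ETS activator gene pnt (FBgn0003118; 3R, 23290231 to 23346167, minus strand) had 0.509, 0.462 and 0.366 RPKM in the CR32027-IR1-labelled libraries, 0.371, 0.561 and 0.528 in CR32027-IR2, against 0.478, 0.502 and 0.362 in OreR. Its exons make up 10.9% of its span, so these low RPKM values stand for 655 to 914 reads per library. With limma voom on the recovered reads its log2 change was 0.01 (95% interval -0.41 to 0.42; adjusted p = 0.984) in the CR32027-IR1-labelled libraries and 0.11 (-0.31 to 0.52; 0.838) in CR32027-IR2 against OreR. The repressor gene cic (FBgn0262582; 3R, 20252770 to 20303942, plus strand) had 8.51, 8.65 and 6.73 RPKM in the CR32027-IR1-labelled libraries, 8.26, 8.23 and 8.09 in CR32027-IR2, against 7.96, 8.29 and 8.75 in OreR. Replicate 3 labelled CR32027-IR1 was its lowest library, and the genotypes overlapped. The log2 change was -0.06 (-0.26 to 0.13; limma, adjusted p = 0.658) and -0.02 (-0.21 to 0.17; 0.94) in the CR32027-IR1-labelled libraries and in CR32027-IR2.

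Other genes of the pathway came from a list of 37 made from its known parts. By identifier 36 were found, and 28 passed the filter. The ligand gene grk and the rhomboid genes ru, stet and rho-6 averaged under 0.1 RPKM, and rho-5 averaged 0.409 RPKM in the CR32027-IR1-labelled libraries, 0.176 in CR32027-IR2 and 0.217 in OreR. The ligand and processing genes past the filter were spi, vn, Krn, rho, rho-4 and S, for the Spitz chaperone. Of the 28, 2 were higher (rho-4 and kek1) and 4 lower (Sur-8, ebi, Mkp3 and vap) in the CR32027-IR1-labelled libraries than in OreR, and 1 was higher (rho-4) in CR32027-IR2. Of all genes 6.09% were called higher and 7.61% lower in the first of these comparisons, and 2.93% higher and 2.22% lower in the second. The split in the first was 4 higher and 2 lower without CR32027-IR1 replicate 3, and 0 higher and 2 lower with array weights or when any of CR32027-IR1 replicate 1, OreR replicate 1 and OreR replicate 2 was left out. The median log2 change of the 28 was 0.01 and -0.01, beside 0.01 and -0.02 over all genes. Adaptor genes (drk, Sos, dos, csw and Shc) and the signal relay genes Raf, Dsor1 and ksr were not called in any comparison. Of all genes, 13.7% and 5.15% were called in the CR32027-IR1-labelled libraries and in CR32027-IR2 against OreR, and 21.9% between the hairpin genotypes.

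**Figure D5:**
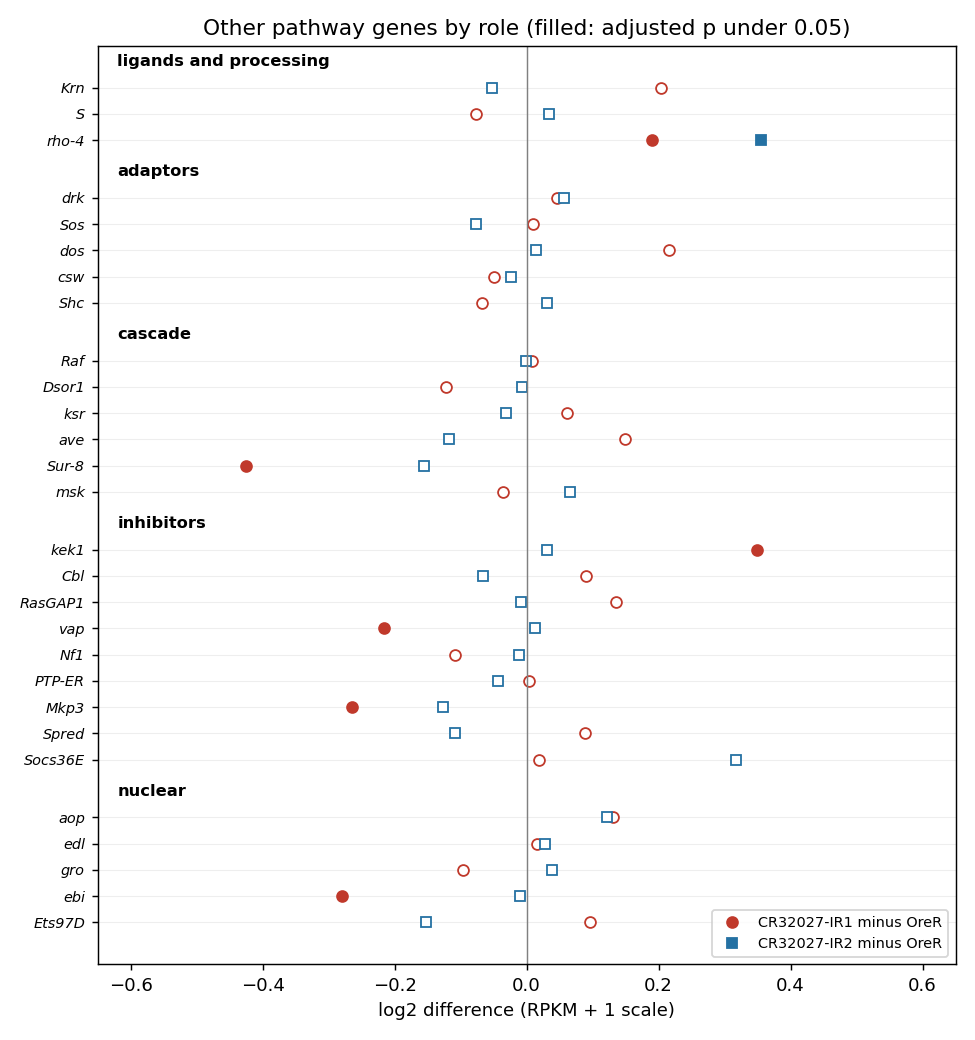
Log2 differences from OreR on the log2(RPKM + 1) scale for the 28 other pathway genes past the filter, grouped by role; circles are the CR32027-IR1-labelled libraries, squares CR32027-IR2, and filled symbols passed an adjusted p of 0.05. Filled circles are rho-4 and kek1 to the right of 0 and Sur-8, vap, Mkp3 and ebi to the left; rho-4 is the filled square.

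The rhomboid family gene rho-4 was called higher in CR32027-IR2 and also in the CR32027-IR1-labelled libraries, each against OreR. It had 17.4, 18.3 and 16.7 RPKM in the CR32027-IR1-labelled libraries, 19.7, 20.1 and 19.2 in CR32027-IR2, against 15.7, 14.2 and 15.6 in OreR. The values of both were above OreR without overlap. In CR32027-IR2 the log2 change was 0.36 ± 0.05 (SE; limma, adjusted p = 0.006), which held without any 1 library. In the CR32027-IR1-labelled libraries it was 0.19 ± 0.05 (adjusted p = 0.0492), lost without any 1 library except CR32027-IR1 replicate 3 (0.0683 to 0.162). That call was also lost with no filter (0.0621), median centring (0.0708), quantile normalization (0.0645), no intensity trend (0.056), array weights (0.144) and only the 2 genotypes fitted (0.119). Between the hairpin genotypes the difference did not pass (adjusted p = 0.0592).

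Of 9 other inhibitor genes past the filter, 1 (kek1) was called higher and 2 (Mkp3 and vap) lower in the CR32027-IR1-labelled libraries than in OreR, beside 6.09% and 7.61% of all genes. The gene kek1 encodes a transmembrane protein that binds and inhibits the receptor and is, like aos, a known output of the pathway. It had 54.0, 57.9 and 49.6 RPKM in the CR32027-IR1-labelled libraries, 45.8, 41.3 and 41.9 in CR32027-IR2, against 41.7, 38.5 and 46.1 in OreR. The CR32027-IR1-labelled libraries stood above all others, by 0.35 ± 0.08 on the log2 scale against OreR (limma, adjusted p = 0.02) and 0.32 ± 0.08 against CR32027-IR2 (adjusted p = 0.0198). Leaving out OreR replicate 1 or 2 (0.0596 and 0.0741) or CR32027-IR1 replicate 1 (0.065) ended the call against OreR. Leaving out CR32027-IR2 replicate 2 or 3 (0.0725 and 0.0678) or CR32027-IR1 replicate 1 (0.0648) ended that against CR32027-IR2. Array weights ended both (0.0943 and 0.0986).

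Mkp3, a phosphatase that switches off the MAP kinase, had 3.31, 3.56 and 3.24 RPKM in the CR32027-IR1-labelled libraries, 3.80, 3.78 and 3.83 in CR32027-IR2, against 4.49, 4.35 and 3.92 in OreR. The genotypes did not overlap. The fall against OreR was 0.26 on the log2 scale in the CR32027-IR1-labelled libraries (-0.26 ± 0.07; limma, adjusted p = 0.0284), and in CR32027-IR2 the change was -0.13 (adjusted p = 0.359). The gene vap, for a Ras GTPase-activating protein, had 29.6, 30.1 and 27.1 RPKM in the CR32027-IR1-labelled libraries, 35.6, 33.7 and 32.8 in CR32027-IR2, against 32.8, 33.1 and 35.2 in OreR. The CR32027-IR1-labelled libraries lay below all others, by -0.22 ± 0.05 (limma, adjusted p = 0.0321) against OreR and -0.23 ± 0.05 (adjusted p = 0.0176) against CR32027-IR2. Without CR32027-IR1 replicate 1 or 3, CR32027-IR2 replicate 2 or OreR replicate 1 or 2 the Mkp3 call was lost (0.0881, 0.0577, 0.0522, 0.0902 and 0.101). Array weights and a fit of only the 2 genotypes ended the calls against OreR of Mkp3 (0.122 and 0.0850) and vap (0.119 and 0.0730). The vap call against OreR was lost without any OreR replicate, CR32027-IR2 replicate 2 or CR32027-IR1 replicate 1 or 3 (0.0544 to 0.0974), and that against CR32027-IR2 without CR32027-IR2 replicate 1 or 2 (0.0677 and 0.0525) or with array weights (0.0627).

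Sur-8, whose worm counterpart is a scaffold that promotes Raf activation, had 10.8, 11.7 and 10.3 RPKM in the CR32027-IR1-labelled libraries, 13.8, 12.8 and 13.5 in CR32027-IR2, against 14.0, 15.1 and 15.9 in OreR. The 3 genotypes did not overlap. The log2 change was -0.42 ± 0.06 against OreR (limma, adjusted p = 0.00341), which held without any 1 library, and -0.27 ± 0.06 against CR32027-IR2 (adjusted p = 0.0169), lost without CR32027-IR1 replicate 1 or CR32027-IR2 replicate 1 or 3 (0.0561, 0.0615 and 0.0564) or with array weights (0.0886). The gene ebi, for a nuclear protein that acts downstream of the receptor, had 37.7, 36.4 and 35.4 RPKM in the CR32027-IR1-labelled libraries, 44.2, 44.8 and 43.7 in CR32027-IR2, against 44.6, 44.3 and 44.8 in OreR. The CR32027-IR1-labelled libraries lay below all others, by -0.28 ± 0.04 against OreR (adjusted p = 0.0026) and -0.27 ± 0.04 against CR32027-IR2 (adjusted p = 0.00206), and both calls held without any 1 library.

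Between the hairpin genotypes 5 of the 28 were higher and 3 lower in the CR32027-IR1-labelled libraries, where 12.3% of all genes were higher and 9.57% lower. The split was 0 higher and 2 lower without CR32027-IR1 replicate 1 or CR32027-IR2 replicate 2 or 3, and 0 higher and 1 lower (ebi) with array weights. Besides kek1, ebi, Sur-8 and vap, the call fell on ave, for a protein that links the Raf scaffolds, at 18.5 ± 1.98 RPKM in the CR32027-IR1-labelled libraries and 15.2 ± 0.165 in CR32027-IR2 (SD, n = 3 each; limma, adjusted p = 0.0228). The ETS factor gene Ets97D was at 16.0 ± 1.47 and 13.2 ± 0.493 RPKM in these genotypes (adjusted p = 0.0247). The last 2, Krn, for a Spitz-like ligand, and Spred, for a Sprouty-related inhibitor, were named after their values were seen. Krn averaged 7.90 ± 0.719 RPKM in the CR32027-IR1-labelled libraries and 6.44 ± 0.417 in CR32027-IR2 (adjusted p = 0.0365), and Spred 15.7 ± 0.492 and 13.6 ± 0.577 (adjusted p = 0.04). None of these 4 was called against OreR in either hairpin genotype. Single libraries decided all 4: ave was lost without CR32027-IR1 replicate 1 or CR32027-IR2 replicate 1, 2 or 3 (0.0587 to 0.0691), Ets97D without CR32027-IR1 replicate 1 or 3 or CR32027-IR2 replicate 2 or 3 (0.059 to 0.0864), Krn without any but OreR replicate 2 and CR32027-IR1 replicate 3 (0.0514 to 0.127), and Spred without CR32027-IR1 replicate 1 or 2, any CR32027-IR2 replicate or OreR replicate 2 (0.0606 to 0.135). Array weights also ended these 4 calls (0.0611 to 0.139), limma voom that of ave (0.0577), a fit of only the 2 genotypes those of ave (0.0548), Ets97D (0.0611) and Krn (0.0718), and no filter, median centring or quantile normalization those of Krn and Spred (0.0562 to 0.108).

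Among pathway genes under the filter, the ETS factor gene Ets21C, which also responds to Jun kinase signalling, stood out in CR32027-IR2 and was named after its values were seen. It had 0.278, 0.404 and 1.28 RPKM in the CR32027-IR1-labelled libraries, 1.92, 1.77 and 1.97 in CR32027-IR2, against 0.166, 0.209 and 0.230 in OreR. These stand for 46, 66 and 227 reads, for 381, 285 and 269 reads, and for 23, 31 and 43 reads. Each library of CR32027-IR2 and each of those labelled CR32027-IR1 was above each OreR library, and replicate 3 stood apart among those labelled CR32027-IR1. The CR32027-IR2 mean was 9.36 times the OreR mean. Limma voom on the recovered reads gave a log2 change of 3.20 in CR32027-IR2 (adjusted p = 0.00395) and of 1.39 in the CR32027-IR1-labelled libraries (adjusted p = 0.135). The CR32027-IR1-labelled libraries were lower than CR32027-IR2 by that test, with -1.81 (adjusted p = 0.00683). The rhomboid-like gene rho-5, also named after its values were seen, had 0.296, 0.471 and 0.461 RPKM in the CR32027-IR1-labelled libraries, 0.186, 0.184 and 0.156 in CR32027-IR2, against 0.308, 0.181 and 0.164 in OreR. By limma voom its log2 difference was 1.17 between the CR32027-IR1-labelled libraries and CR32027-IR2 (adjusted p = 0.0188) and 0.96 between the CR32027-IR1-labelled libraries and OreR (adjusted p = 0.0507).

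Few other receptor tyrosine kinases passed the filter, and none was called. Those given here were named after their values were seen. Of 11 listed, btl and InR were not matched by symbol, so their levels are not known here. Of 9 found in the table, Pvr, otk and Cad96Ca passed the filter, and 0 were called in any comparison by limma or by limma voom (13.7%, 5.15% and 21.9% of all genes by limma), with 1 at an unadjusted p under 0.05 in each. Pvr, the receptor for PDGF- and VEGF-like ligands, averaged 5.63 ± 1.40 RPKM in the CR32027-IR1-labelled libraries, 6.86 ± 0.314 in CR32027-IR2 and 5.10 ± 0.705 in OreR (SD, n = 3 each; limma, adjusted p = 0.661 and 0.193 against OreR). The myoblast FGF receptor gene htl averaged 0.074, 0.048 and 0.031 RPKM in the same order.

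Vein and intervein genes, which the pathway helps to place, gave no call against OreR. All 11 measured genes passed the filter, and 0 were called against OreR in either hairpin genotype by limma or by limma voom, with 1 at an unadjusted p under 0.05 in each, where limma called 13.7% and 5.15% of all genes. Their median log2 change was 0.05 in the CR32027-IR1-labelled libraries and 0.09 in CR32027-IR2, beside 0.01 and -0.02 over all genes. The vein gene ab, a zinc finger factor, was lower by -0.31 ± 0.10 in the CR32027-IR1-labelled libraries than in CR32027-IR2 (limma, adjusted p = 0.0484), with 3.09, 2.54 and 2.89 RPKM against 3.48, 3.98 and 3.76. That call was lost without any 1 library except OreR replicate 2 (0.0534 to 0.145), with no filter (0.0928) and with array weights (0.126).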

How the data were processed

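Per the labels' protocols, 100 ng of total RNA went into each stranded mRNA library. CASAVA 1.8.2, TopHat2 and the dm3 build are named in the submitters' processing notes, with no role or order; the sources used here name no counter, strand setting or annotation. RPKM values were deposited by the authors for 15682 genes. By identifier, 15002 genes received a symbol and BDGP6 position, with no conversion from dm3. Low values were whole multiples of 1 read, which gave each library's depth. For 99.5% of 8754 genes with 10 or more reads in a library, at least 1 length turned every value into whole reads (tolerance 0.01 read). Where more than 1 length did so, the smallest was kept. Of 7708 such lengths for genes with introns, 77.8% lay within 2% of the genomic span. Reads carry no molecular identifiers, so read numbers show counting error only.

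Groups came from the titles. The 7437 genes that averaged 1 RPKM or more entered 1 fit of all 9 libraries on log2(RPKM + 1), made in R 4.3.3 by limma 3.58.1 with its mean-variance trend (6 residual degrees of freedom), with Benjamini-Hochberg adjustment over all of them and a threshold of 0.05. This scale understates changes of low genes. Members were also compared by the exact two-sided permutation test. The fit was tested on simulated data. Members, lists and tests were chosen with earlier results of these data known. The rule for naming took all members, CR32027, up to 6 called genes of each list and comparison by smallest p, and the 3 genes most correlated with Egfr and with the member of smallest p. As alternatives, the fit was repeated with another pseudocount, filter, normalization or threshold, without the trend, with array weights, on 2 genotypes alone, with a replicate block, by limma voom on recovered reads (8567 genes with a mean of at least 10) and leaving out each library. Python 3.11.15 with pandas 2.3.3 and matplotlib 3.10.9 did the rest.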

Additional observations from a re-analysis of the deposited data

How the results depend on the processing

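The rl calls in the CR32027-IR1-labelled libraries held under every alternative run. Of 846 single-gene values recomputed, 697 kept direction and side of the threshold, 125 lost their call, 4 gained one and 20 changed sign, each of the 20 without a call; the causes were not tested. Genes called in the CR32027-IR1-labelled libraries against OreR numbered 1019, and 371 with array weights, 612 with only these genotypes fitted, 565 with the replicate block, 375 and 1577 at thresholds of 0.01 and 0.1, and 485 to 1320 without 1 library. In CR32027-IR2 against OreR they numbered 383, and 972 with array weights, 222 with the block, 156 and 591 at those thresholds, and 187 to 504 without 1 library. Between the hairpin genotypes there were 1625, and 706 with array weights, 663 at 0.01, and 970 to 2159 without 1 library. Members called numbered 1 (rl) in place of 2 in both comparisons of the CR32027-IR1-labelled libraries with no filter, array weights, only 2 genotypes, the replicate block or 0.01, against OreR also with genes of at least 5 RPKM, against CR32027-IR2 also with median centring or quantile normalization, and 1 to 2 were called without 1 library. The other pathway genes called in the CR32027-IR1-labelled libraries against OreR numbered 6, and 2 with array weights, 3 with only 2 genotypes, 2 with the block (rho-4, kek1, Mkp3 and vap lost, adjusted p 0.0565 to 0.122), 2 at 0.01 and 2 to 6 without 1 library. In CR32027-IR2 there was 1, and 2 with no filter or limma voom and 1 to 2 without 1 library. Between the hairpin genotypes there were 8, and 1 with array weights, 2 with the block, 1 at 0.01 and 2 to 8 without 1 library. The CR32027 log2 change in CR32027-IR2 was -1.10 to -0.79 without 1 library and -1.78 to -0.98 under the other alternatives.

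Sign changes among uncalled log2 values in CR32027-IR2 against OreR were vn 0.00368 with median centring and 0.0244 with quantile normalization and cic 0.0104 with quantile normalization; between the hairpin genotypes Ras85D was 0.0157 with quantile normalization. Without 1 library the ranges were, in the CR32027-IR1-labelled libraries against OreR, -0.0833 to 0.0681 for spi and -0.122 to 0.0382 for cic; in CR32027-IR2 against OreR, -0.0327 to 0.0165 for vn, -0.0772 to 0.0131 for Egfr, -0.0109 to 0.0816 for rl, -0.0144 to 0.0728 for aos, -0.0701 to 0.0885 for sty and -0.0504 to 0.0103 for cic; and between the hairpin genotypes -0.0834 to 0.0115 for Egfr, -0.0306 to 0.00103 for Ras85D and -0.101 to 0.0596 for cic.

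Same-numbered libraries of different genotypes did not deviate together (correlations of deviations -0.237 to 0.116, with 1 of 9 over 0.1, and 3 of 18 best matches with the own number), so the replicate block pairs libraries by number only. Some differently numbered pairs had higher correlations, up to 0.267 for CR32027-IR1 replicate 2 with OreR replicate 3. Whether such libraries were handled together was not tested. Among the 10 members, counting spreads were highest for rho, pnt and aos, at 5.01%, 3.65% and 3.54%; CR32027 had 10.7%.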
